A study of Mus musculus with 14 samples.

Results

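Old and young cancer-free mice were compared across all genes in bone marrow cells that carried the surface protein Sca1 and lacked the receptor Kit. The comparison took the samples titled as old cancer-free (5) and young cancer-free (3), which are 8 of the 14 arrays of the series. All mice were female NCR-NU mice, a nude strain in which no thymus forms, so every group shares the lack of thymus-derived T cells. The cancer-free mice carried Matrigel as the control for the remaining 6 arrays, which came from 3 old and 3 young mice with primary tumours of matched size. Age was given as old or young with no figure. Cells were sorted by flow cytometry straight into lysis buffer, their total RNA was amplified with the Nugen Ovation Pico WTA system, and 1 whole-transcriptome array was hybridised per biological replicate. The sources used here do not say whether a replicate was 1 mouse or a pool. Each p-value below therefore sets a difference against the spread between replicates, whichever these were. That spread was estimated on all 14 arrays. The data bear on how this marrow population differs with the age of the host when no tumour is present.

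Marrow cells of this surface phenotype are a mixture, in which lymphocytes, natural killer cells, plasmacytoid dendritic cells and other leukocytes can carry Sca1. Plasmacytoid dendritic cells sense nucleic acids through endosomal Toll-like receptors and are a main source of type I interferon. Immediate early genes, among them the Fos and Jun subunits of the transcription factor AP-1, are transcribed within minutes of a stimulus, without new protein synthesis. Dividing cells switch on E2F-driven replication genes in S phase and then the genes of spindle, kinetochore and cytokinesis. Levels and differences below are on the log2 scale of the deposited values, on which a difference of 1 is a doubling.

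The 2 age groups had 22180 named genes on the table, and 13805 were bright enough to be tested, that is above the table median of 3.88 on at least 3 arrays. Ptprc, the leukocyte antigen CD45, lay between 10.74 and 11.36 on the old and between 10.76 and 10.97 on the young arrays. Kit, whose protein was used to exclude cells, lay between 5.25 and 5.96 and between 5.25 and 6.29, above that level on all 8 arrays, with a difference of -0.38 ± 0.27 (SE). Ly6a, which encodes Sca1, was not analysed here. Mean levels of the T cell markers lay between 7.20 and 8.12 on the old arrays and between 7.15 and 8.11 on the young arrays, and those of natural killer cell markers between 8.32 and 8.54 and between 8.33 and 8.88. Markers of stromal cells (means of 3.97 to 4.30 over the 8 arrays) and of megakaryocytes (4.23 to 4.52) lay near the filter level. In these bulk samples fewer cells of a type and less RNA per cell cannot be told apart.

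Old replicates 4 and 5 stood apart from the other 6 arrays in RNAs that carry no poly(A) tail, a feature noticed after the values were seen. Rpph1, the RNA of RNase P, was at 10.39, 10.48 and 10.97 on old replicates 1 to 3 but at 5.32 and 4.18 on replicates 4 and 5, against 10.40, 10.67 and 10.65 in young mice. Terc, the telomerase RNA, was at 7.57, 8.93 and 7.95, then at 5.05 and 5.47, against 8.53, 8.86 and 8.89. The median over 11 structural RNAs was 7.57, 8.93 and 8.07 on the first 3 old arrays, 5.32 and 5.42 on the last, and 8.53, 8.65 and 8.59 in young mice. In 8 of these 11 RNAs, and in 12 of 19 replication-dependent histone genes, both arrays lay below the other 3 old arrays, against 12.9% of all genes tested. The same held for 21 of 36 mitosis genes, 21 of 38 subunits of oxidative phosphorylation and 13 of 28 ribosomal protein genes. Many of the results that follow are therefore also given without these 2 arrays, as an alternative chosen after seeing the data. A result given without such a value can have moved as well. The part of this array difference in each result was not tested.

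**Figure D1:**
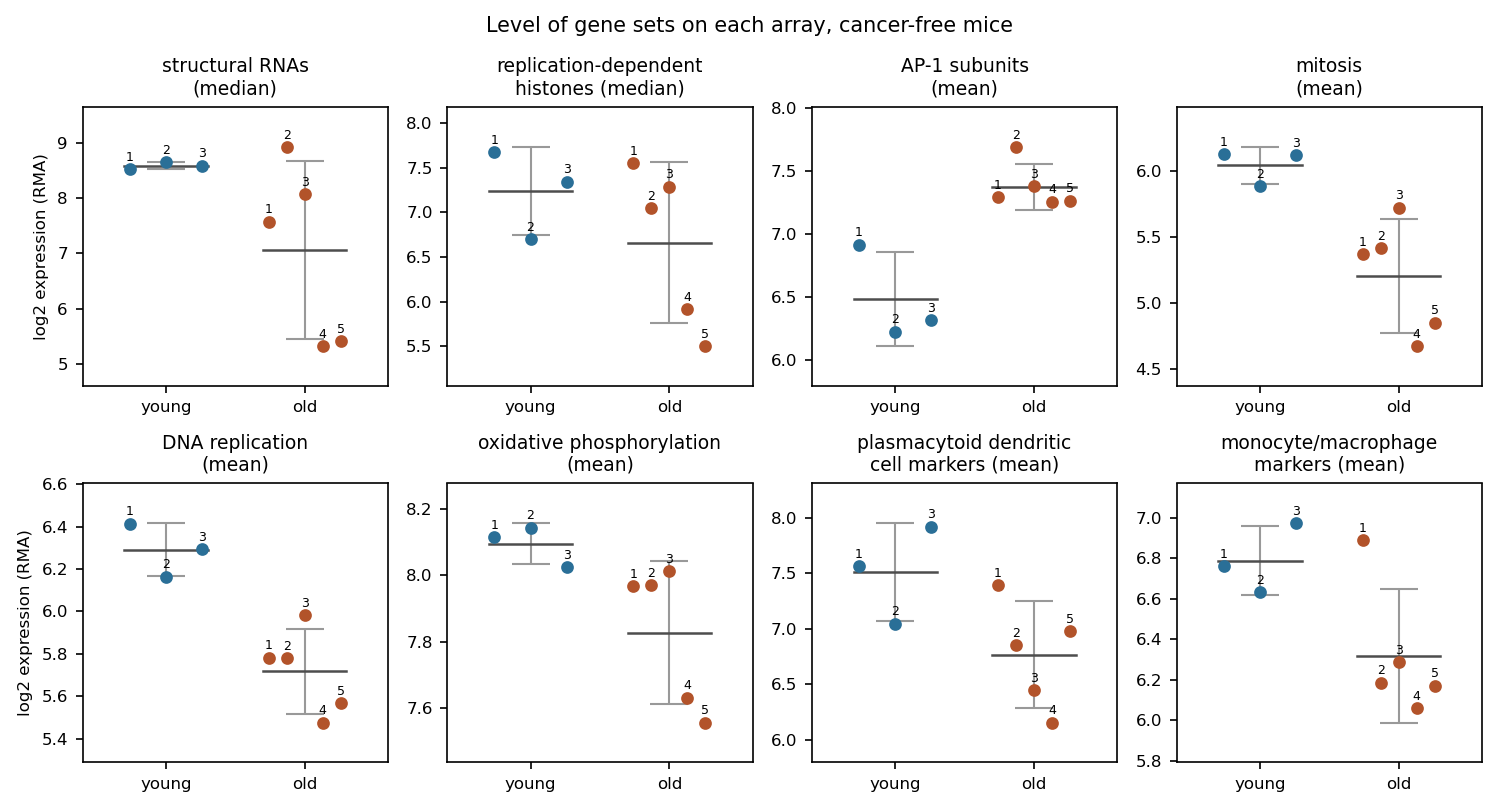
Level of 8 gene sets on each cancer-free array, as log2 expression (vertical axes), for young (blue) and old (orange) mice; numbers are replicates, lines are group means and bars are 1 SD. Old replicates 4 and 5 have medians of 5.32 and 5.42 for structural RNAs, where the other 6 arrays lie between 7.57 and 8.93, while all 5 old arrays lie above the young arrays for AP-1 subunits and below them for mitosis and DNA replication.

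No gene differed between old and young cancer-free mice at an adjusted p under 0.05 in limma (0 of 13805 genes, 0%), and the smallest adjusted p was 0.393. At an unadjusted p under 0.05 there were 1057 genes (7.66%), where 690.25 would be expected without any difference. Of these, 343 (2.48%) had the higher mean in old mice and 714 (5.17%) the lower. Without old replicates 4 and 5 the counts were 328 and 751. The split moved with the scaling, to 191 higher and 1040 lower after median centring of each array and to 399 and 479 after cyclic loess. Between the age groups, 401 genes (2.90%) had all old arrays above all young ones and 607 (4.40%) had all old arrays below. Over all genes tested the median difference was -0.04, with the higher mean in old mice for 44.5% of genes and the lower for 55.5%. The genes described below are those with the smallest p and the members of gene lists, and their differences are reported as measured, since none passed the adjusted threshold.

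Of the 15 named genes higher in old mice with the smallest p, 4 belong to the immediate early response: Fosb, Zfp36, Jun and Fos. Fosb, an AP-1 subunit, was at 9.08, 9.36, 9.10, 7.45 and 8.28 in old and at 7.21, 4.63 and 6.18 in young mice, a difference of 2.65 ± 0.56 (SE; 6.27-fold). Fos, its close relative, was at 8.95, 8.85, 8.70, 7.21 and 7.76 against 6.70, 4.65 and 5.78, a difference of 2.59 ± 0.57. Jun, which pairs with Fos proteins, was at 10.39, 10.07, 9.61, 9.26 and 9.37 against 8.41, 6.78 and 8.03, a difference of 2.0 ± 0.44. In all 3 genes every old array lay above every young array, the spread was widest among the young arrays through the low level of replicate 2, and old replicates 4 and 5 were the lowest of the old. The adjusted p was 0.393 for each of the 3 in limma. Zfp36, which encodes the mRNA-destabilising protein tristetraprolin, was at 11.57, 11.45, 11.32, 11.16 and 11.34 against 10.54, 10.28 and 10.12, a difference of 1.06 ± 0.22 with little spread in either group. Junb differed by 0.87 ± 0.24, and its lowest old array (8.28) lay above its highest young one (7.91). Without old replicates 4 and 5 the difference was 3.17 for Fosb, 3.13 for Fos, 2.29 for Jun and 1.14 for Zfp36. Leaving out young replicate 2 gave the smallest differences of any alternative for Fosb (1.96), Fos (2.05) and Jun (1.52).

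The promoters of some immediate early genes are shown for letters that AP-1, CREB-family and serum response factors are known to bind. Each sequence is the 150 bases before the RefSeq transcription start on the gene's strand, in build GRCm38.p6, with capitals marking TGACG (or its reverse complement), TGACGTCA or a CArG box.
Fos, chr12:85473740-85473889, plus strand: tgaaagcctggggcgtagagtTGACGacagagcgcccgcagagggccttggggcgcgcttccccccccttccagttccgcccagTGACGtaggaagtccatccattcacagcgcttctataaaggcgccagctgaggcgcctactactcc
Fosb, chr7:19310046-19310195, minus strand: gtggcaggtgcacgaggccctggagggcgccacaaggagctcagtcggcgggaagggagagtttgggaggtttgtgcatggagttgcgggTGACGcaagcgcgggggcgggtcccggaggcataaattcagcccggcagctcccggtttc
Dusp1, chr17:26508473-26508622, minus strand: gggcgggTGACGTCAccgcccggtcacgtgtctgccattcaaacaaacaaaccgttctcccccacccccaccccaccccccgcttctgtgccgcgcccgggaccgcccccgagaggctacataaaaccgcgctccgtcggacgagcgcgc
Zfp36, chr7:28379229-28379378, minus strand: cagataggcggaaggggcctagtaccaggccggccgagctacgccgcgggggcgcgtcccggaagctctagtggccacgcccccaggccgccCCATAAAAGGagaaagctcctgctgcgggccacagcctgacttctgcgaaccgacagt
In Fos the letters TGACG begin 129 and 66 bases before the start, in Fosb 60 bases before it, and in Zfp36 the CArG box begins 58 bases before it. Searched over 250 bases before the start on both strands, TGACG was present in 19 of 31 windows (61.3%) of AP-1 and other immediate early genes, against 17.8% of all 32851 promoter windows and 24.8% of those of genes tested. TGACGTCA, which contains TGACG on both strands, was present in 3 of 31 windows (9.68%), against 1.55% of all windows and 2.38% of those of genes tested. The CArG box was present in 6 of 31 (19.4%), against 1.47% and 1.24%. These are matches of letters in a window and describe the sequence only.

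Of 9 AP-1 subunits tested, 4 (Fosb, Jun, Fos and Junb) were higher at an unadjusted p under 0.05, and these 4 were also the ones whose groups did not overlap. Among all genes tested 2.48% were higher at that p and 2.90% had all old arrays above the young. The list's median difference was 0.21 against -0.04 over all genes, since the other 5 members lay between -0.42 and 0.21. Those were Jund, Fosl2, Atf3, Batf and Maf, named here after their values were seen. The count was again 4 of 9 without old replicates 4 and 5. Mean levels of the list were 7.29, 7.69, 7.38, 7.26 and 7.26 in old and 6.91, 6.22 and 6.32 in young mice, so that every old array lay above every young one.

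Among 25 other immediate early genes, 17 had the higher mean in old mice and the median difference was 0.32. At an unadjusted p under 0.05, 2.48% of all genes tested were higher and 5.17% lower. In this list 7 were higher and 2 lower at that p, against 8 and 0 without old replicates 4 and 5. Leaving out young replicate 3 left 3 higher. Klf4, a zinc finger transcription factor, was at 6.61, 6.92, 6.62, 5.48 and 5.30 in old and at 5.02, 4.35 and 5.05 in young mice, a difference of 1.38 ± 0.39. Dusp1, a phosphatase that switches off MAP kinases, was at 8.83, 8.94, 8.72, 7.95 and 8.04 against 7.92, 6.68 and 7.19, a difference of 1.23 ± 0.42. In both genes old replicates 4 and 5 lay between the other old arrays and the young ones. Ier2 differed by 1.14 ± 0.40 with overlapping groups, and by 0.71 without young replicate 3. The 2 lower genes, Egr3 (-0.82 ± 0.31) and Dusp5 (-0.53 ± 0.24), were named after their values were seen.

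**Figure D2:**
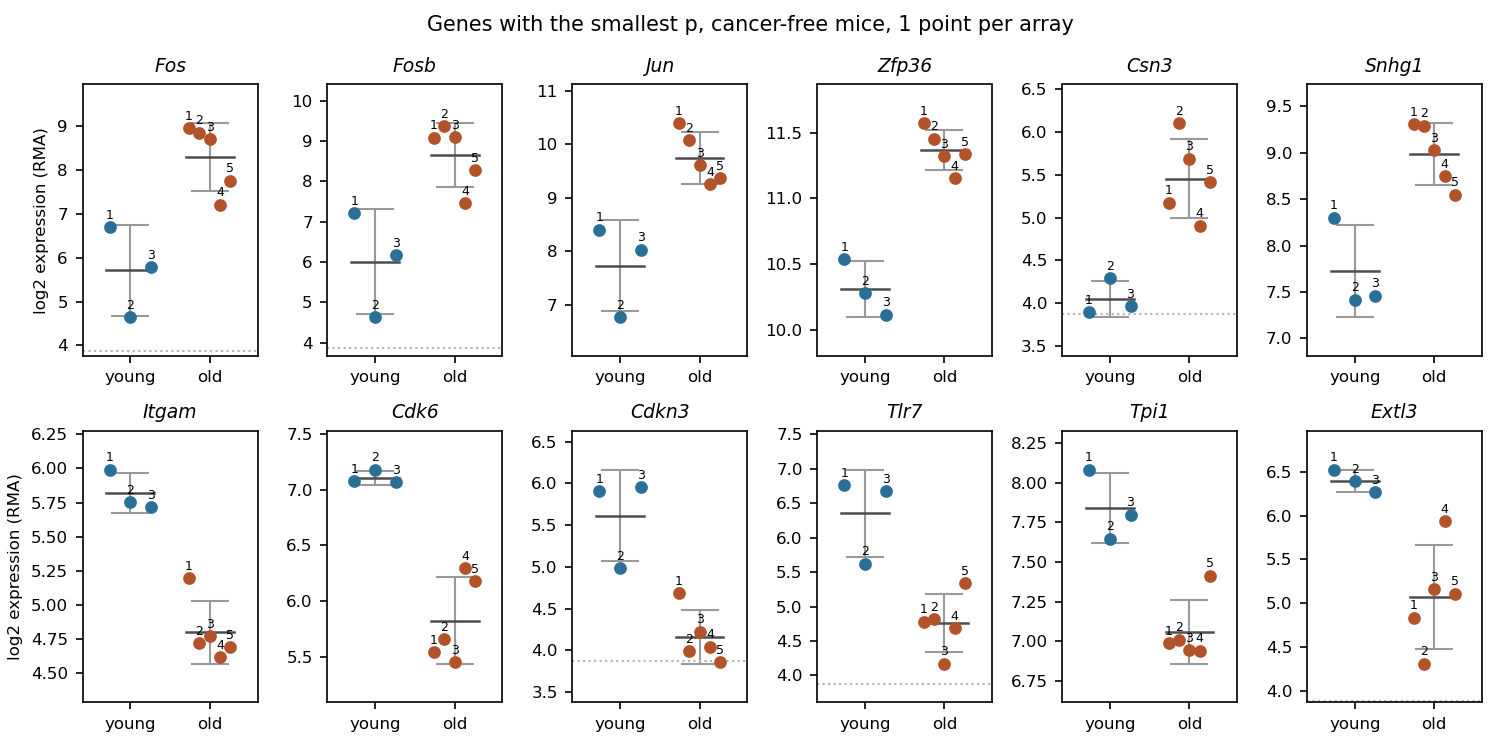
Log2 expression (vertical axes) of 12 genes chosen from those with the smallest p, on each cancer-free array; blue points are young and orange points old mice, numbers are replicates, lines are means, bars are 1 SD and the dotted line is the filter level of 3.88. No old array overlaps a young one in any of the 12 genes, for example Fos with old arrays at 7.21 to 8.95 and young arrays at 4.65 to 6.70. The choice by small p on these same arrays favours such separation, which is no separate evidence.

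Other genes of stress and RNA metabolism had higher means in old mice. Dnajb1, a heat shock co-chaperone, was at 7.09, 7.49, 6.94, 6.83 and 7.16 in old and at 6.60, 6.29 and 5.96 in young mice, a difference of 0.82 ± 0.20. Hspa1a, the inducible HSP70, differed by 1.48 ± 0.58, with 2 of the 3 young arrays below the filter level, so that this is not an exact size. The other 10 cytosolic chaperones tested did not reach an unadjusted p under 0.05, and the list's median was -0.12. Atf4, the transcription factor of the integrated stress response, was at 9.48, 9.17, 9.27, 9.10 and 9.14 against 8.95, 8.61 and 8.35, a difference of 0.60 ± 0.17, with all old arrays above the young. Its targets Ddit3 (1.11 ± 0.33) and Chac1 (0.52 ± 0.24) also had an unadjusted p under 0.05, as 3 of 20 genes of the unfolded protein response, of which 10 were higher and 10 lower. Among all genes tested 2.48% were higher at that p.

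Snhg1, a host transcript of small nucleolar RNAs, was at 9.31, 9.29, 9.03, 8.75 and 8.55 in old and at 8.30, 7.42 and 7.46 in young mice, a difference of 1.26 ± 0.25 (2.40-fold). Snhg15 was at 4.92, 4.78, 4.73, 5.71 and 5.77 against 4.33, 4.25 and 3.66, a difference of 1.11 ± 0.26, with young replicate 3 below the filter level. For Snhg15 it is old replicates 4 and 5 that were highest, and without them the difference was 0.74. Of 13 such host genes tested, 11 had the higher mean in old mice, 3 at an unadjusted p under 0.05 and also without overlap (Snhg1, Snhg15 and Snhg20), with a list median of 0.26. Among all genes tested 2.48% were higher at that p and 2.90% had all old arrays above the young. Srsf5, a splicing factor, differed by 0.72 ± 0.18, at 10.28 to 10.86 in old and 9.63 to 10.03 in young mice.

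The gene with the smallest p of all was Csn3, the milk protein kappa-casein, at 5.17, 6.10, 5.69, 4.91 and 5.41 in old and at 3.89, 4.29 and 3.97 in young mice. Its difference of 1.41 ± 0.26 (2.65-fold) had an adjusted p of 0.393 in limma, and the young arrays lay just above the filter level. Of the 7 milk protein genes on the table, Csn3 and Wap were the 2 bright enough to test, and Wap differed by 0.44. Polg2, the accessory subunit of the mitochondrial DNA polymerase, was at 8.16, 7.53, 7.70, 6.29 and 5.41 against 5.23, 3.55 and 4.58, a difference of 2.57 ± 0.58 that was 3.35 without old replicates 4 and 5. Young replicate 2 lay below the filter level for Polg2. The histone gene H4c9 was at 5.71, 5.98, 5.64, 5.56 and 6.43 against 5.29, 4.36 and 4.81, a difference of 1.05 ± 0.24. It was among the 7 of 19 histone genes that were not lower on both old replicates 4 and 5. Sgsm3, a regulator of small GTPases (0.86 ± 0.19), the surface receptor Cd300ld3 (0.91 ± 0.22), the inflammasome gene Naip6 (1.16 ± 0.29, with the young mean below the filter level) and the zinc finger gene Zfp607a (0.89 ± 0.23) complete the 15 genes higher in old mice. All 15 were without overlap between the groups. They were chosen by small p in this same comparison, so this separation is no separate evidence.

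Genes of cell division made up the largest group on the lower side. In the list of mitosis, spindle and kinetochore genes all 36 members had the lower mean in old mice, with a median difference of -0.91. At an unadjusted p under 0.05, 20 of 36 were lower, where 5.17% of all genes were. In 13 the groups did not overlap, against 4.40% of all genes in that direction. Mean levels of the list were 5.37, 5.41, 5.72, 4.67 and 4.85 in old and 6.13, 5.88 and 6.12 in young mice. All old arrays lay below the young ones, and replicates 4 and 5, the arrays low in RNAs without a poly(A) tail, were the lowest. Without those 2 arrays 33 of 36 members were lower, 12 of them at an unadjusted p under 0.05, and the median was -0.57. The list median lay between -1.01 and -0.57 in the 27 alternatives run. Those that left out tumour-bearing arrays or changed only the variance model could not move it. Leaving out any 1 cancer-free array left 14 to 23 members at that p.

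Cenpa, the histone variant of centromeres, was at 5.76, 5.57, 5.82, 4.76 and 4.95 in old and at 6.22, 6.44 and 6.68 in young mice, a difference of -1.08 ± 0.26 that was -0.73 without old replicates 4 and 5. Ect2, which acts in cytokinesis, was at 5.82, 3.88, 4.66, 4.06 and 4.56 against 6.37, 5.87 and 6.21, a difference of -1.56 ± 0.41. Spdl1, a dynein adaptor at kinetochores, differed by -1.09 ± 0.27, and Esco2, which acetylates cohesin, by -0.98 ± 0.20 with the old mean below the filter level. In these 4 genes each old array lay below each young array. Cdkn3, a phosphatase of cyclin-dependent kinases, was at 4.68, 3.99, 4.23, 4.04 and 3.86 against 5.90, 4.98 and 5.96, a difference of -1.45 ± 0.29 (2.74-fold).

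DNA replication genes had a similar profile: 35 of 38 had the lower mean and the median was -0.57. At an unadjusted p under 0.05, 18 were lower, against 5.17% of all genes, and 13 had no overlap, against 4.40%. Without old replicates 4 and 5 there were 31 lower means, 8 at that p, and a median of -0.46. The count was 9 without young replicate 3, 10 without young replicate 1 and 12 after cyclic loess. Uhrf1, which recruits the maintenance DNA methyltransferase to replicated DNA, was at 6.55, 6.05, 6.09, 5.70 and 5.70 in old and at 7.59, 7.09 and 7.39 in young mice, a difference of -1.34 ± 0.31. Mcm3, a subunit of the replicative helicase, was at 5.04, 6.29, 6.03, 5.48 and 5.61 against 6.99, 6.62 and 7.30, a difference of -1.28 ± 0.32 with the lowest level on old replicate 1. Rrm1, the large subunit of ribonucleotide reductase, differed by -1.05 ± 0.29 and the DNA polymerase subunit Pole by -0.92 ± 0.28, both without overlap.

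The promoters of 3 of these genes are shown for the CCAAT box and for TTTGAA, the core letters of the cell cycle homology region, which are known elements of cell cycle promoters. Capitals mark CCAAT or its reverse complement ATTGG, and TTTGAA or its reverse complement, in the 150 bases before the RefSeq start (GRCm38.p6).
Cdkn3, chr14:46760391-46760540, plus strand: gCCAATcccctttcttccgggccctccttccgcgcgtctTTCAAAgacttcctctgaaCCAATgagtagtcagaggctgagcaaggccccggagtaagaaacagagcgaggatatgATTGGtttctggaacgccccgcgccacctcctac
Cenpa, chr5:30666736-30666885, plus strand: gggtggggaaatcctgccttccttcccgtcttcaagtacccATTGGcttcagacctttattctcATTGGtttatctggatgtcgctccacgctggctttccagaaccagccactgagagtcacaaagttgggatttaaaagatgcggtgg
Mcm3, chr1:20820313-20820462, minus strand: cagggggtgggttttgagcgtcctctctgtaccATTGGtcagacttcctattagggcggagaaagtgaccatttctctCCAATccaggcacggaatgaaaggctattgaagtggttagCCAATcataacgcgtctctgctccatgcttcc
Cdkn3 and Mcm3 each held 3 CCAAT boxes in this stretch and Cenpa held 2. Over 250 bases and both strands, CCAAT was present in 27 of 35 windows of mitosis genes (77.1%) and 20 of 37 of replication genes (54.1%), against 33.9% of all promoter windows and 34.5% of those of genes tested. TTTGAA was present in 10 of 35 windows of mitosis genes (28.6%) and in 10.8% of those of replication genes, against 16% of all windows and 10.9% of those of genes tested. The letters were counted as sequence and no binding was measured.

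Regulators upstream of the cycle had lower means as well. E2f3, a transcriptional activator of S-phase genes, was at 4.32, 3.56, 3.73, 4.04 and 4.13 in old and at 5.72, 5.60 and 5.57 in young mice, a difference of -1.67 ± 0.35 (3.19-fold). Old replicates 2 and 3 lay below the filter level for E2f3, so that this is not an exact size. Cdk6, a kinase that starts the cycle with D cyclins, was at 5.54, 5.66, 5.45, 6.30 and 6.18 against 7.08, 7.18 and 7.07, a difference of -1.28 ± 0.28. For Cdk6 the gap was narrowest on old replicates 4 and 5, and without them the difference was -1.56. Of 13 E2F factors and pocket proteins, 12 had the lower mean and 3 (E2f3, E2f8 and E2f2) an unadjusted p under 0.05. Of 16 cyclins and kinases, 12 had the lower mean and 3 that p (Cdkn3, Cdk6 and Cdk1), with a median of -0.45. Among all genes tested 5.17% were lower at that p. Cdk1 differed by -1.16 ± 0.50, and by -0.64 without old replicates 4 and 5. Among 18 regulators of DNA methylation and chromatin, 13 were lower, 4 at that p: Uhrf1, the Polycomb methyltransferase Ezh2 (-0.97 ± 0.27), the remodeller Hells (-0.82 ± 0.25) and the deacetylase Sirt1 (-0.65). Uhrf1 and Hells were also counted among the DNA replication genes.

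The inhibitors of the cycle did not mirror this pattern. Of 7 cyclin-dependent kinase inhibitors, 4 had the higher and 3 the lower mean, and Cdkn2c, at -0.85 ± 0.33 with an unadjusted p under 0.05, had the lower. Cdkn2c differed by -0.53 without old replicates 4 and 5, and 0 of the 7 had that p, as was also so without old replicate 4, old replicate 5 or young replicate 3 alone. Cdkn2a, the senescence-linked locus of p16 and p19, was at 4.98, 5.05, 4.93, 4.15 and 4.86 in old and at 4.48, 4.39 and 4.91 in young mice, a difference of 0.20 ± 0.22 with overlapping groups. Cdkn1a differed by -0.52 ± 0.46 with overlapping groups. Of 17 p53 targets 9 were higher and 8 lower, none at an unadjusted p under 0.05, with a median of 0.02. Of 9 secreted factors linked to senescence, 5 had the higher and 4 the lower mean, with a median of 0.09. At an unadjusted p under 0.05 were 2 of them, Tgfb1 (-0.81 ± 0.27) and Grn, and both were lower in old mice. The share lower at that p was 5.17% among all genes tested. Without old replicates 4 and 5, 1 factor was higher and 1 lower at that p, and without young replicate 3 the lower count was 1.

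**Figure D3:**
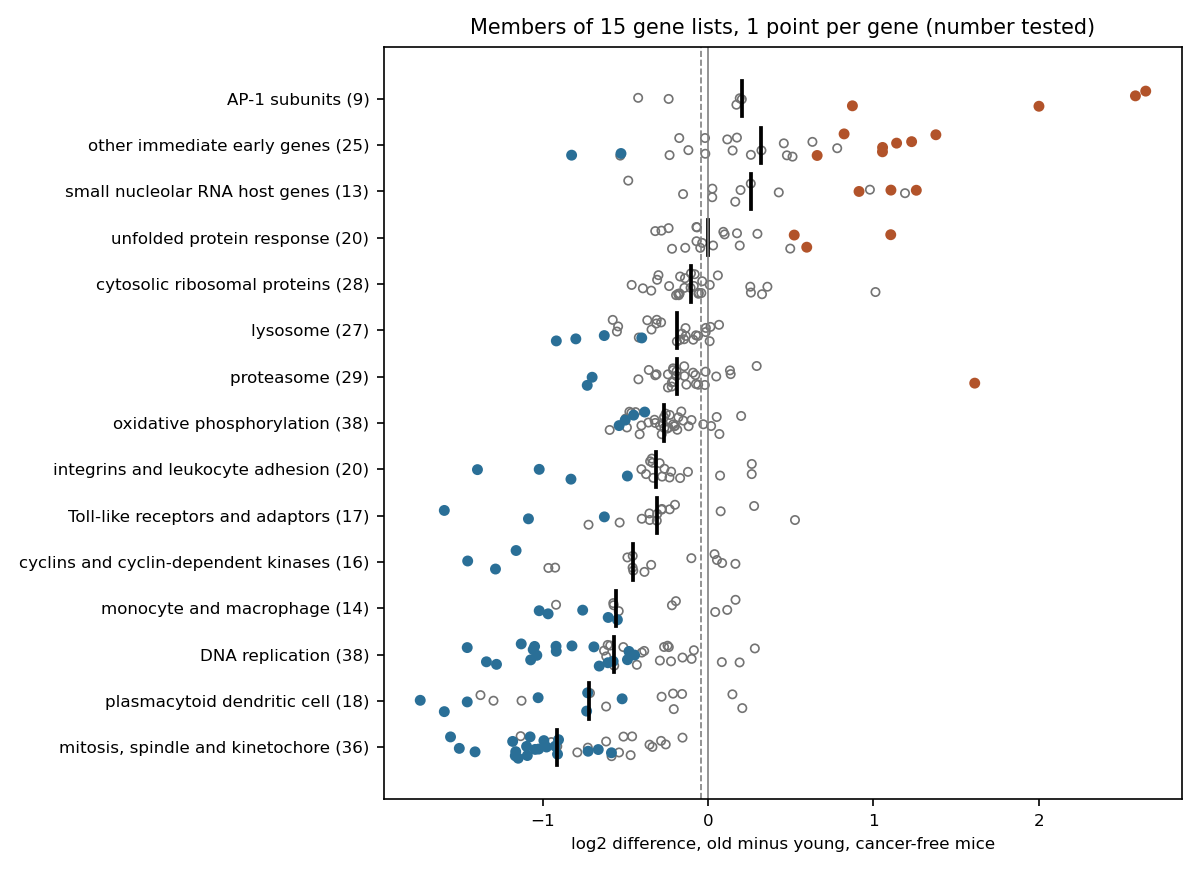
Log2 difference between old and young cancer-free mice (horizontal axis) of each member of 15 gene lists (vertical axis, number tested in brackets). Filled points have an unadjusted p under 0.05 (orange higher, blue lower in old mice), short black bars are list medians and the dashed line is the median of all genes at -0.04; the mitosis list has all 36 points below 0 and a median of -0.91.

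Markers of plasmacytoid dendritic cells had lower means in 16 of 18 genes, with a median of -0.72. At an unadjusted p under 0.05, 7 were lower, against 5.17% of all genes, and 3 had no overlap, against 4.40%. Without old replicates 4 and 5, 15 of 18 were lower, 4 at that p, and the median was -0.57. The count was 3 without young replicate 1, and 4 without young replicate 3 or without old replicate 4. Cox6a2, a muscle-type cytochrome oxidase subunit that marks these cells, was at 8.62, 8.42, 6.57, 7.12 and 7.98 in old and at 9.65, 9.11 and 9.69 in young mice, a difference of -1.74 ± 0.41 (3.34-fold). Tlr7, the receptor for single-stranded RNA, was at 4.78, 4.81, 4.17, 4.69 and 5.34 against 6.76, 5.62 and 6.68, a difference of -1.59 ± 0.34. Bst2, the antiviral protein tetherin, was at 7.40, 6.53, 6.51, 6.06 and 6.96 against 8.28, 7.51 and 8.65, a difference of -1.46 ± 0.41. In these 3 genes the groups did not overlap, while the list mean did, at 7.39, 6.85, 6.44, 6.15 and 6.98 in old and 7.56, 7.04 and 7.92 in young mice, with old replicate 1 above young replicate 2.

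Most monocyte and macrophage markers and most adhesion molecules also had lower means in old mice. Among all genes tested 5.17% were lower at an unadjusted p under 0.05, and 4.40% had all old arrays below the young. Itgam, the integrin chain CD11b, was at 5.20, 4.72, 4.77, 4.62 and 4.69 in old and at 5.99, 5.75 and 5.71 in young mice, a difference of -1.02 ± 0.20 (2.03-fold). Of 14 monocyte and macrophage markers, 11 were lower, 5 at an unadjusted p under 0.05, with a median of -0.56. That count was 2 without old replicates 4 and 5, with a median of -0.27, while it was 1 without young replicate 3, 3 without young replicate 2 and 9 without old replicate 1. Of 20 integrins and adhesion molecules, 17 were lower and 4 had that p, namely Itgam, Pecam1 (-0.83 ± 0.20), Itgax, the chain CD11c (-1.39 ± 0.44), and Itgb3 (-0.49 ± 0.21). All 4 were without overlap, and without old replicates 4 and 5 the count was again 4. Itgam was also counted among the monocyte and macrophage markers. Of 17 Toll-like receptors and adaptors, 14 were lower and 3 had that p, Tlr7, Tlr8 and Tlr12. Tlr7 was also counted among the plasmacytoid dendritic cell markers. Tlr8 had both group means below the filter level. Ifi205, an interferon-inducible gene, was at 3.17, 3.26, 2.54, 2.51 and 3.35 in old and at 4.43, 4.97 and 5.85 in young mice, all old arrays below the filter level, while of 24 interferon-stimulated genes 1 (Irf9, -1.08 ± 0.37) had that p. Without young replicate 3 Irf9 differed by -0.68 and 0 of the 24 had that p. Of 19 neutrophil markers, 9 were higher and 10 lower and 0 had that p. Their median was -0.19, and 0.21 without old replicates 4 and 5, so its direction turned with those arrays.

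Grn, which encodes the lysosomal and secreted protein granulin, was at 10.19, 10.37, 9.71, 9.76 and 10.03 in old and at 10.52, 10.55 and 10.85 in young mice. The difference was -0.63 ± 0.22, with every old array below every young one and an adjusted p of 0.581 in limma. Grn belongs to the lysosome list, of whose 27 members 24 had the lower mean with a median of -0.19. At an unadjusted p under 0.05, 5.17% of all genes tested were lower, and 4 of this list. These were Grn, the acid lipase Lipa (-0.80 ± 0.29) and the cathepsins Ctsl (-0.92 ± 0.36) and Ctsb (-0.40). Without old replicates 4 and 5 there were 24 lower means and 1 at that p, while the count was 1 without young replicate 3 and 2 without young replicate 1 or old replicate 4.

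Genes of energy metabolism and protein turnover had small, mostly lower differences. Among all genes tested 55.5% had the lower mean, and 5.17% were lower at an unadjusted p under 0.05. Of 38 subunits of oxidative phosphorylation, 34 had the lower mean with a median of -0.26. The 4 at an unadjusted p under 0.05 were Cycs, Cox5b, Cox8a and Ndufb8, at -0.38 to -0.54. List means were 7.97, 7.97, 8.01, 7.63 and 7.56 in old and 8.12, 8.14 and 8.03 in young mice, with replicates 4 and 5 the lowest of the 8 arrays. Without those 2 arrays the median was -0.11, with 27 lower and 11 higher means. After cyclic loess 0 of the 38 had an unadjusted p under 0.05, and without young replicate 2 or old replicate 5 there was 1. Tpi1, a glycolytic enzyme, was at 6.99, 7.01, 6.94, 6.94 and 7.41 against 8.08, 7.65 and 7.80, a difference of -0.79 ± 0.17, and was the 1 of 16 glycolysis genes at that p. Of 29 proteasome subunits 24 were lower, with a median of -0.19, against 19 and -0.08 without old replicates 4 and 5. Psmb5 (-0.70 ± 0.20) and Psmb7 (-0.73 ± 0.22), catalytic subunits of the core particle, had that p, while Psma5 was higher by 1.61 ± 0.62 from young levels below the filter level.

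Further genes with the smallest p on the lower side were Urb2, of ribosome assembly (-0.99 ± 0.22), Extl3, a glycosyltransferase of heparan sulphate (-1.33 ± 0.30), Mgat5, which branches N-glycans (-0.83 ± 0.19), and BC035044 (-1.24 ± 0.29). Extl3 was at 4.83, 4.31, 5.16, 5.94 and 5.11 in old and at 6.52, 6.39 and 6.27 in young mice. Among lymphoid markers, 0 of 12 T cell and 0 of 12 mature B cell genes had an unadjusted p under 0.05. Of 13 markers of B cell progenitors 1 (Sox4, -1.17 ± 0.34, with the old mean below the filter level) and of 10 of group 2 innate lymphoid cells 1 (Il17rb, -0.82) had that p. Of 16 natural killer cell markers Gzmb (-1.54 ± 0.58), and of 12 plasma cell markers Tnfrsf13b (-0.82 ± 0.21), had the lower mean at that p. These single members are 6.25% to 10% of their lists, where 5.17% of all genes tested were lower at that p. Higher and lower means numbered 5 and 8 for B cell progenitors and 4 and 6 for group 2 innate lymphoid cells. They numbered 7 and 9 for natural killer cells and 3 and 9 for plasma cells. Without old replicates 4 and 5 they numbered 7 and 6 for B cell progenitors and 5 and 5 for group 2 innate lymphoid cells. For natural killer cells they were then 4 and 12, and for plasma cells 6 and 6. The median of B cell progenitors turned from -0.20 to 0.07 without those arrays. Gzmb differed by -0.95 without old replicates 4 and 5, and without young replicate 2 none of the 16 natural killer cell markers had that p. None of 28 ribosomal protein genes and none of 9 stem and progenitor markers reached that p.

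The same age difference in tumour-bearing mice comes from 6 arrays that share none with the 8, and is set beside it here. Young tumour-bearing replicate 1 stood apart in that set: its median over structural RNAs was 6.23 against 8.48 and 7.86 on the other young arrays, over ribosomal protein genes 9.51 against 10.80 and 10.78, and over oxidative phosphorylation 6.99 against 8.05 and 8.20. List medians are therefore also given without it, as an alternative chosen after seeing the data, and its part in the comparison was not tested. In tumour-bearing mice 1394 genes (10.1%) had an unadjusted p under 0.05 and 0 an adjusted p under it. No gene had an age difference that differed between the 2 settings at an adjusted p under 0.05 (0 genes, 0%, smallest adjusted p 0.736 in limma). At an unadjusted p under 0.05 there were 610 (4.42%), fewer than the 690.25 expected without any difference. Of the 714 genes lower in old cancer-free mice at an unadjusted p under 0.05, 546 (76.5%) were also lower in old tumour-bearing mice. Of the 343 higher genes, 255 (74.3%) were also higher there, against 59.6% of all genes with the same sign. The correlation of the differences was 0.31 across 13805 genes, which are not independent.

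Mitosis genes were lower in both settings, with medians of -0.91 without and -1.13 with tumours, as were DNA replication genes (-0.57 and -0.60) and plasmacytoid dendritic cell markers (-0.72 and -0.59). Without young tumour-bearing replicate 1 the medians with tumours were -1.20, -0.67 and -0.84. Fos differed by 2.59 ± 0.57 without and 1.35 ± 0.63 with tumours, and Fosb by 2.65 ± 0.56 and 0.90 ± 0.62. The other immediate early genes had medians of 0.32 and -0.01, the latter 0.09 without young tumour-bearing replicate 1. Subunits of oxidative phosphorylation had medians of -0.26 and 0.08. Without young tumour-bearing replicate 1 the second turned to -0.10, and without old cancer-free replicates 4 and 5 the first was -0.11. T cell markers had medians of 0.13 and 0.98, the second 0.71 without young tumour-bearing replicate 1. Csn3 and Itgam had the smallest p on the higher and the lower side in cancer-free mice. Csn3 differed by 1.41 ± 0.26 without and 1.94 ± 0.29 with tumours, and Itgam by -1.02 ± 0.20 and -0.90 ± 0.23. Mgat5 differed by -0.83 ± 0.19 and -1.19 ± 0.21, and Sgsm3 by 0.86 ± 0.19 and 0.88 ± 0.22. In contrast, Cenpa differed by -1.08 ± 0.26 and 0.06 ± 0.29, and Extl3 by -1.33 ± 0.30 and 0.03 ± 0.33. Mgat5, Sgsm3, Cenpa and Extl3 were picked for this paragraph after their values were seen. None of the single-gene differences between the settings passed the adjusted threshold, and list medians were not tested.

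The 10 genes with the smallest p for a difference between the settings included some with almost no age difference in cancer-free mice. Nop16, of ribosome assembly, differed by age by -0.04 ± 0.29 without and by 2.04 ± 0.32 with tumours, and Ugdh, which makes UDP-glucuronate, by -0.02 ± 0.22 and -1.57 ± 0.25. Ralb, a small GTPase, had opposite signs at -0.98 ± 0.29 and 1.15 ± 0.33, with cancer-free arrays at 6.15, 5.02, 6.20, 6.43 and 5.50 in old and 6.75, 6.70 and 7.05 in young mice. Naip6 also had opposite signs, at 1.16 ± 0.29 and -0.95 ± 0.33. The others were Rlf, Klk8, Zfp961, Adgrl2, Pgs1 and Col10a1, with cancer-free differences between -0.78 and 0.38.

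**Figure D4:**
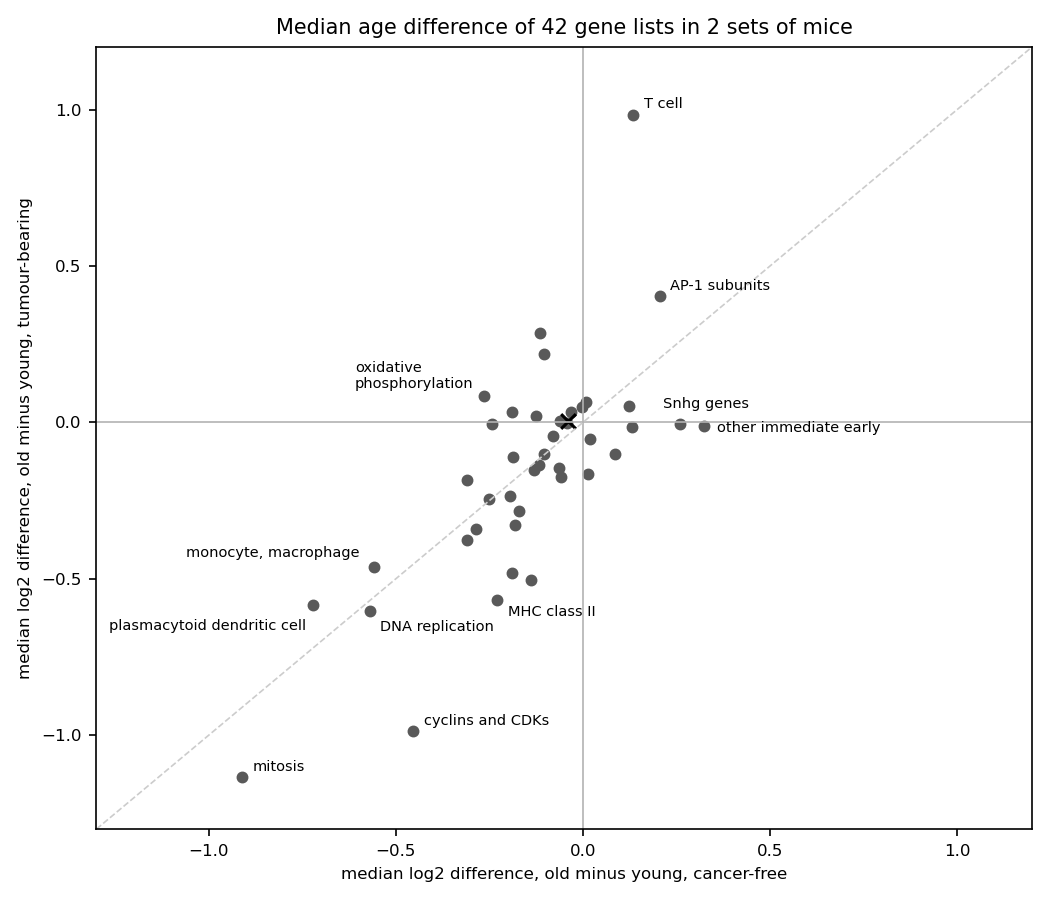
Median log2 difference between old and young mice of 42 gene lists with at least 5 members tested, in cancer-free (horizontal axis) and tumour-bearing mice (vertical axis), which share no array; the cross is the median of all genes and the dashed line marks equal values. Mitosis genes lie lowest in both (-0.91 and -1.13), while T cell markers (0.13 and 0.98) and oxidative phosphorylation (-0.26 and 0.08) lie off the line; without young tumour-bearing replicate 1 the vertical values are 0.71 and -0.10, and without old cancer-free replicates 4 and 5 oxidative phosphorylation is at -0.11 on the horizontal axis.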

How the data were processed

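Each array holds labelled RNA of 1 biological replicate. The authors deposited RMA values on a log2 scale, computed with oligo 1.32.0 (R 3.2.0), per the submitters' processing notes; the set of arrays normalised together and the genome build of the array are not named there. Of 41345 probes, 23521 had 1 gene symbol, 1814 several and 16010 none; the brightest probe by mean stood for each of 22180 genes. Genes above the table median (3.88) on at least 3 arrays were tested. A model with 4 group means was fitted to all 14 arrays in limma 3.58.1 (R 4.3.3; 10 residual and 3.86 prior degrees of freedom), so the 6 tumour-bearing arrays add to the estimate of spread. Tests were two-sided with Benjamini-Hochberg adjustment over 13805 genes at 0.05. The median SE of a difference was 0.24; precision is limited by the number of arrays. An exact permutation test of 5 against 3 arrays cannot give a two-sided p below 0.0357.

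Named genes were the 15 higher and 15 lower genes with the smallest p (predicted, receptor-family and small RNA genes, and genes with both means below 3.88, not named), up to 4 members per list, the 10 with the smallest p for cancer-free minus tumour-bearing, and Kit, Ptprc, Grn and Csn3. Of 868 entries in 44 lists, 791 matched the table, and some genes belong to several lists. Members and lists were chosen with earlier results of these data known, and lists are described by counts and medians without a test. Promoters came from RefSeq (GRCm38.p6), with 10772 of the genes tested matched. On simulated data for the comparison of old and young cancer-free mice (13805 genes, 200 changed), 39% of genes with a log2 change of 1 and 93% with a change of 2 were called. Alternatives changed the filter, scaling, variance model, array weights, choice of probes, samples and block.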

Additional observations from a re-analysis of the deposited data

Results flagged for a closer look

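In 8 of 86 groups of 5 old cancer-free arrays examined (44 list means and 42 genes), 1 array lay further from the others than Dixon's critical value for 5 samples (0.71); chance alone gives about 1 in 20. Old replicate 1 was high for the mean of monocyte and macrophage markers (6.89), erythroid markers (4.87), lysosome genes (7.68) and for Itgam (5.20). Old replicate 2 was high for the means of AP-1 subunits (7.69) and cytosolic heat shock chaperones (7.24) and low for BC035044 (5.05). Old replicate 5 was high for Tpi1 (7.41). In Itgam, Tpi1 and BC035044 these arrays still lay on the same side of the young arrays as the other old arrays.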

How the results depend on the processing

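No gene passed the adjusted threshold in any of 27 alternatives for the age difference in cancer-free mice (smallest adjusted p in limma 0.0603, without old tumour-bearing replicate 1, to 0.837, without young cancer-free replicate 3) or in any of 26 for its difference from tumour-bearing mice (0.414 to 0.999). At an unadjusted p under 0.05, array weights gave 616 higher and 1140 lower genes against 343 and 714, no filter 691 and 894, and every probe taken singly 753 and 889. A fit to only the 8 cancer-free arrays gave 413 higher and 924 lower genes, with a smallest adjusted p of 0.108 in limma. Replicate numbers did not pair the arrays (correlations of deviations of -0.08 to 0.089 over 18 pairs, not every array closest to its own number). With the replicate block 0 genes were called (smallest adjusted p 0.289; 315 higher and 782 lower); old replicates 4 and 5 have no partner and add nothing to that difference.

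Some single-gene differences turned sign, from -0.04 for Nop16, -0.02 for Ugdh, 0.04 for Siglecf, 0.15 for Ptprc and -0.61 for Ctsg. After cyclic loess Nop16 was at 0.069, Ugdh at 0.057 and Siglecf at -0.035, and after median centring Siglecf was at -0.025. Both the replicate block and leaving out old replicates 4 and 5 gave -0.062 for Ptprc and 0.065 for Ctsg. Leaving out 1 replicate gave -0.17 to 0.11 for Nop16, -0.11 to 0.11 for Ugdh and -0.032 to 0.17 for Siglecf. Some list medians turned sign too, among them those of cyclin-dependent kinase inhibitors (-0.10 to 0.09 over the alternatives) and the unfolded protein response (-0.10 to 0.12). Others were p53 targets (-0.13 to 0.22), B cell progenitors (-0.29 to 0.07) and mature B cells (-0.16 to 0.08). The cause was not tested. Simulated log2 changes of 1 were called for 39% of genes in this comparison, so differences of that size can be missed with 5 and 3 arrays.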
